A study of Rattus norvegicus with 18 samples.

Results

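Potassium channel subunits are the rat genes whose symbol on the array starts with Kcn, further letters and a number. They comprise pore-forming subunits, silent subunits and auxiliary subunits. The array held 126 probe sets for 75 such genes, of 14217 genes with a single symbol. Each gene was represented by its probe set with the highest mean. Of the 75 genes, 46 lay above the filter on dim probe sets, which kept 10294 genes in all, and 29 lay under it. The values describe RNA from the neocortex and the hippocampal formation of rats in 3 sleep states.

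Potassium channels let potassium ions leave the cell, which brings the membrane potential back after an action potential, holds it at rest and sets how readily a neuron fires again. Voltage-gated (Kv) channels are rings of pore subunits that open on depolarisation, inward rectifiers (Kir) pass current near the resting potential and serve several G protein-coupled receptors, and tandem-pore (K2P) channels carry background leak. Auxiliary subunits such as the KChIP, beta and MiRP proteins change the number of channels at the surface and the speed of their gating, and silent Kv subunits act only in complexes with other Kv subunits. In forebrain neurons the Kv4 channels with their KChIP and dipeptidyl-peptidase-like partners carry the fast A-type current of the dendrites.

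All groups were male Sprague Dawley rats carrying electrodes for recording brain waves and muscle tone. Control rats remained in the home cage, deprived rats were kept from paradoxical (rapid eye movement) sleep for 78 h by the flowerpot method, a small platform over water, and recovery rats had 72 h of deprivation and then 6 h in which sleep was allowed. There were 12 rats per state, divided into 2 sets of 6. Equal amounts of RNA from the rats of a set were combined for each tissue, taken from the right side, giving 12 pools and n = 2 pools in each of 6 groups. On 18 arrays, each group had 2 technical arrays of set 1, whose values were averaged, and 1 of set 2. A pool averages the rats in it, so differences between single animals were not measured, and housing on a platform is part of the deprived and recovery treatments.

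All values below are log2 of the deposited MAS5 signal, which is a relative brightness for each probe set, and differences are differences of log2 values, so 1 is a factor of 2. On the first principal component (48.3% of the variance) neocortical pools had scores of -26.35 to -20.71, set 1 hippocampal pools of 37.94 to 46.57 and set 2 hippocampal pools of 0.2995 to 10.01. The set 2 hippocampal pools thus stood apart from those of set 1, in the direction of the neocortex, and differences within each set are given below for the genes whose sets had opposite signs and for several others. Technical arrays of the same pool correlated at 0.976 to 0.986. The pool values of the 2 sets of a group correlated at 0.957 to 0.979. Set 1 is there the mean of 2 arrays, so these ranges are not like for like. Of the hippocampal neuron markers above the filter 8 of 9 were higher in the hippocampal formation, 3 of which had a neocortical mean under the filter level and passed the filter through the hippocampal pools. Of the neocortical neuron markers 6 of 9 were lower there, 1 of which passed the filter through the neocortical pools. The number of arrays limits the precision.

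Upstream sequences are shown for Kcng2 and Kcnk2, which had the largest difference between the structures in each direction among the 46 genes above the filter, and for the Kv4 pore gene Kcnd2 and its partner gene Kcnip2, which were both higher in the hippocampal formation. They run from 250 bases before to 50 bases after the annotated start, on the strand of the gene, from RefSeq on build GRCr8. Letters in capitals mark a GC box (GGGCGG on either strand), the motif bound by Sp1-type factors. Kcng2 lies on the minus strand at chr18:76083639-76083938, Kcnk2 has annotated starts on the minus strand at chr13:103438593-103438892 (start 1) and chr13:103494637-103494936 (start 2), Kcnd2 lies on the plus strand at chr4:50742235-50742534 and Kcnip2 on the minus strand at chr1:254613849-254614148.
Kcng2: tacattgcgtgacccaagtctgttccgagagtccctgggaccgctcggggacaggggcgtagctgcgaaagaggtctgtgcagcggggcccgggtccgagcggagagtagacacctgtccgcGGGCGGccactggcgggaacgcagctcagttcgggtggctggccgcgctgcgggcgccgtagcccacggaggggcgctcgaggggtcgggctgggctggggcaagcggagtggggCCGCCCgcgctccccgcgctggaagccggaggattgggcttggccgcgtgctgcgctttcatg
Kcnk2 start 1: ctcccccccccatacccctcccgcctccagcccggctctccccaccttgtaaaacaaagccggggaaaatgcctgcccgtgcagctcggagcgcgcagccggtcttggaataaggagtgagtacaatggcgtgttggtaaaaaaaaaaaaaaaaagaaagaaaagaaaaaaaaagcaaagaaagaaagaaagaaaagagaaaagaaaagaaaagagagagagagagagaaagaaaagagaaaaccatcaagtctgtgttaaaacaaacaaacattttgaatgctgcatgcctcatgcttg
Kcnk2 start 2: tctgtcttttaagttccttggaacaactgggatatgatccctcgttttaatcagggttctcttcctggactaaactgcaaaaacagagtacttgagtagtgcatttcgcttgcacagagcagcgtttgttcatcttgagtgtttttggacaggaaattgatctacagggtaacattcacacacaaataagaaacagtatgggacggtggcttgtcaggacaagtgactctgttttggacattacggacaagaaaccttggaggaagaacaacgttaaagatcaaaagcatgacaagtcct
Kcnd2: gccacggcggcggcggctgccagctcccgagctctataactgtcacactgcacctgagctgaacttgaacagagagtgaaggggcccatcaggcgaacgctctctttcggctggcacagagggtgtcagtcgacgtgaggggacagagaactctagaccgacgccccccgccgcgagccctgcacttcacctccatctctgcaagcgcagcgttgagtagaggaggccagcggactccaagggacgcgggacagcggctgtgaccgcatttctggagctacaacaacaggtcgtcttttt
Kcnip2: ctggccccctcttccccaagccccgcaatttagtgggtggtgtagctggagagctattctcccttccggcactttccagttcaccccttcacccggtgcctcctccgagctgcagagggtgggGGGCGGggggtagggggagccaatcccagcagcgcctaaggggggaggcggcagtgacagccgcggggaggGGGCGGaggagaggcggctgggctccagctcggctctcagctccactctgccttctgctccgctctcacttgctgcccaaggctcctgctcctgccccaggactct

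The Kcng2 and Kcnip2 windows each held 2 GC boxes and were 72% and 67.7% G and C. The Kcnd2 window (61.7% G and C) and both Kcnk2 windows (44.3% and 41.7%) held none of these letters. RefSeq windows were found for 52 of the 75 genes, with 58 windows in all. A GC box was present in 56.9% of them, against 33.1% of the 33469 windows of all genes, and the median G and C content was 62% against 51.7%. TATAAA was present in 3.45% of the channel gene windows and 14.2% of all windows, and the cyclic AMP response motif TGACGTCA in 0 of 58 and 1.83%. By direction, 3 of 8 windows of the genes higher in the hippocampal formation (37.5%) and 9 of 19 windows of those lower there (47.4%) held a GC box. These are matches of letters on both strands, with no test, and describe no binding.

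Many channel genes differed between the structures, and more of them were lower in the hippocampal formation than higher. Kcng2, a silent Kv subunit gene, was 4.15-fold higher in the hippocampal formation, and Kcnk2, which encodes the mechanosensitive leak channel TREK-1, was 2.77-fold lower. Kcnj6, a G protein-gated inward rectifier, Kcnj16, Kcnd2, Kcna4, Kcnip2 and the beta subunit genes Kcnab1 and Kcnab2 were the other 7 genes that were higher. The 18 lower genes included Kcnt1, Kcns1, Kcnk4, Kcna5, Kcnv1, Kcnab3, Kcnh1 and Kcnc1.

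In counts, 26 of the 46 genes passed the test (56.5%; limma on the difference between the structures within each of 6 animal pools, adjusted p under 0.05), 8 higher (17.4%) and 18 lower (39.1%). Across all 18625 probe sets tested 19.9% passed, 9.4% higher and 10.5% lower, and across the 10294 genes 20.8% passed. At an unadjusted p under 0.05 it was 30 of the 46 genes and 36% of all probe sets. With the set of rats as a block 32 of the 46 genes passed, against 43% of all probe sets, and 33 did at an unadjusted p, against 50.7%. The 6 genes gained with the block were Kcna1, Kcng3, Kcnip4 and Kcnk1, which were lower, and Kcnj3 and Kcnma1, which were higher. The block takes the mean difference between the sets out of the spread. A call with it therefore does not show that a difference held in both sets. The values of the 6 pools of each structure did not overlap for 21 of the 46 genes (45.7%), against 13.5% of all probe sets. The median difference of the 46 genes was -0.18, with -0.21 in each set, and that of all genes was -0.0062. The median size of the difference, sign aside, was 0.38 for the channel genes and 0.15 for all genes. For 25 of the 26 genes that passed, all 6 animal pools differed in the same direction, and Kcnj9 did so in 5 of 6. All 26 had the same sign in both sets. These genes were chosen by a test on the same 6 differences. The agreement in sign thus follows largely from that choice and is no added support. Without set 2 of the hippocampal formation, a fit of 1 mean to the 3 set 1 differences called 31 of the 46 genes, 11 higher and 20 lower, against 45.4% of all probe sets. Of the 26 genes 23 were among them, and Kcnab1, Kcnj9 and Kcnmb4 were not (adjusted p = 0.0928, adjusted p = 0.0652 and adjusted p = 0.0652, limma). The count was 17 without the deprived pool of set 1, which ended the calls of Kcna5, Kcna6, Kcnab2, Kcnab3, Kcnip1, Kcnj11, Kcnj9, Kcnmb4 and Kcnt1. Leaving out another single animal pool ended 3 to 7 calls. The share of all probe sets was not counted in these smaller fits. Whether the fall in calls is particular to the channel genes was therefore not tested. Kcnip1 and Kcnmb4 lost their calls whichever pool was left out, Kcnj9 unless it was the set 2 control pool, Kcnab2 and Kcnj11 without the set 1 control or recovery pool, Kcnt1 without the set 1 recovery pool, and Kcnab1 without any single set 2 pool or the set 1 recovery pool. Of the 46 genes, Kcna5 and Kcns2 had a mean under the filter level in 1 structure and so passed the filter through the other. In these bulk samples fewer cells of a type and less RNA per cell cannot be told apart.

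**Figure D1:**
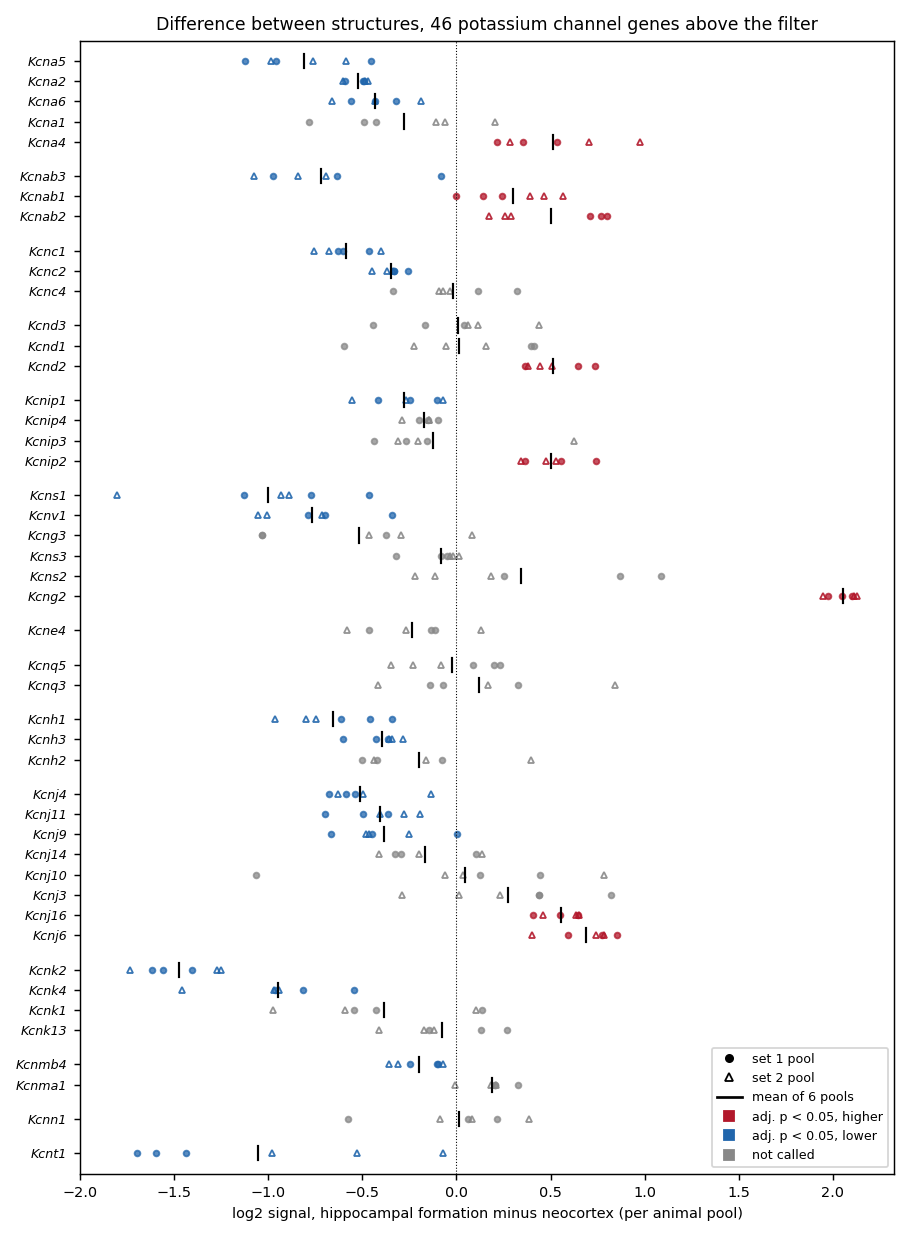
Difference in log2 signal between the hippocampal formation and the neocortex for each of 46 potassium channel genes (rows, grouped by subfamily), with 1 symbol for each of 6 animal pools (circles set 1, triangles set 2) and a bar at the mean. Kcng2 lies near 2.05 in all 6 pools, Kcnk2 lies lowest at -1.47, and the 3 set 1 pools of Kcnt1 lie below its 3 set 2 pools.

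Markers of other cells also differed between the structures, a comparison in which 19.9% of all probe sets passed. Of 10 striatal neuron markers above the filter, 10 were lower in the hippocampal formation, 2 of which (Adora2a and Drd2) had a hippocampal mean under the filter level, with a summed signal of 775.7 to 1014 there and of 1984 to 2556 in the neocortex. Of 8 markers of meninges and fibroblasts, 2 were higher and 6 lower, with sums of 498 to 865 and of 843.7 to 1225. Astrocyte markers (2 of 11 higher) had sums of 16550 to 17860 and of 14600 to 17030, oligodendrocyte markers (2 of 10 higher) of 11950 to 17010 and of 11270 to 13310, and choroid plexus markers (0 of 5) of 777.2 to 6226 and of 603.4 to 3002. Endothelial markers (3 of 8 lower) had sums of 1006 to 1170 and of 1191 to 1366, and pericyte and smooth muscle markers (2 of 7 lower) of 357.4 to 411 and of 397.8 to 491. The sums take in all listed markers on the array, also those under the filter. Those under it were 1 striatal, 1 meningeal, 1 pericyte or smooth muscle and 3 choroid plexus markers. The part of all these markers in the differences of the channel genes was not tested.

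The Kcna genes encode the Shaker-type Kv1 pore subunits of axons and terminals. Of the 5 above the filter, 1 was higher in the hippocampal formation, 3 were lower and 1 did not pass. Kcna4, a rapidly inactivating subunit, had hippocampal values of 7.16 to 7.72 (median 7.40) and neocortical values of 6.68 to 7.08 (median 6.93), and was 1.42-fold higher (log2 difference 0.51 ± 0.0911 SE, adjusted p = 0.0093, limma). The ranges of its pools were separate. Kcna2, which forms low-threshold axonal channels, was lower by a log2 difference of -0.52 ± 0.0488 (SE, adjusted p = 0.000592, limma), and Kcna6 by -0.43. Kcna5 was lower in all 6 animal pools, with hippocampal values of 3.62 to 4.51 (median 4.18) and neocortical values of 4.74 to 5.12 (median 4.96, adjusted p = 0.0101, limma). Its hippocampal mean of 4.12 lay under the filter level of 4.30, so only its direction is stated and no fold. Kcna1, the subunit often joined with Kcna2 in axons, had a difference of -0.57 in set 1 and 0.01 in set 2. It did not pass (adjusted p = 0.152, limma). It passed with the block, which leaves the difference between the sets out of the spread (adjusted p = 0.000725, limma).

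The Kcnab genes encode the cytoplasmic beta subunits that ride on Kv1 channels. All 3 passed, Kcnab1 and Kcnab2 higher and Kcnab3 lower in the hippocampal formation. Kcnab3 had hippocampal values of 4.45 to 4.95 (median 4.74) and neocortical values of 5.04 to 5.71 (median 5.45), and was 1.64-fold lower (log2 difference -0.72 ± 0.14 SE, adjusted p = 0.0133, limma). Its structures did not overlap. Kcnab2 differed by 0.76 in set 1 and 0.24 in set 2 (mean 0.50, adjusted p = 0.0192, limma), and Kcnab1 by 0.13 and 0.47 (mean 0.30, adjusted p = 0.0437, limma). The call of Kcnab1 was lost when the values were quantile normalized (adjusted p = 0.0654, limma) and the pools of its structures overlapped.

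The Kcnc genes encode Kv3 channels, which repolarise fast-spiking neurons such as parvalbumin interneurons. Kcnc1 had hippocampal values of 7.53 to 7.89 (median 7.70) and neocortical values of 8.10 to 8.41 (median 8.35), without overlap, and was 1.5-fold lower (log2 difference -0.59 ± 0.0543 SE, adjusted p = 0.00057, limma). Kcnc2 was lower by -0.35 (adjusted p = 0.00372, limma). However, none of its 4 other probe sets above the filter passed, and 2 of them had the opposite sign. The mean of its probe sets above the filter differed by -0.0524 (adjusted p = 0.837, limma). Kcnc4 differed by 0.03 in set 1 and -0.07 in set 2 and did not pass. Of 10 interneuron markers above the filter 5 were lower in the hippocampal formation and 1 higher, and the parvalbumin gene Pvalb, a marker of fast-spiking interneurons, had means of 8.09 against 8.71 (adjusted p = 0.0018, limma). The part of the interneuron markers in the Kcnc differences was not tested.

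In the Kv4 group, Kcnd2 and Kcnip2 were higher in the hippocampal formation. Kcnd2, the pore subunit of the dendritic A-type current, had hippocampal values of 8.26 to 8.80 (median 8.55) and neocortical values of 7.88 to 8.26 (median 8.02), a 1.43-fold difference (log2 0.51 ± 0.068 SE, adjusted p = 0.00274, limma). Kcnip2, a calcium-binding KChIP protein of these channels, had 8.78 to 8.93 (median 8.84) against 8.15 to 8.43 (median 8.38), a 1.42-fold difference (log2 0.50 ± 0.0541 SE, adjusted p = 0.00111, limma). The ranges did not overlap, though the highest neocortical and lowest hippocampal pools of Kcnd2 were equal to 2 decimals, and a second probe set of each gene was also higher (0.47 for Kcnd2 and 0.58 for Kcnip2). The other pore genes Kcnd1 and Kcnd3 differed by 0.01 each and did not pass. Kcnd1 had 0.07 in set 1 and -0.04 in set 2, and Kcnd3 had -0.19 and 0.20.

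Kcnip1 was lower by -0.28 (adjusted p = 0.0277, limma), a call lost when a gene's probe sets above the filter were averaged (adjusted p = 0.0762, limma). Kcnip3, which encodes the protein also known as DREAM or calsenilin, and Kcnip4 did not pass (adjusted p = 0.395 and adjusted p = 0.059, limma), although Kcnip4 was lower in 6 of 6 animal pools and passed with the block (adjusted p = 0.00686, limma). Kcnip3 differed by -0.29 in set 1 and 0.04 in set 2. The dipeptidyl-peptidase-like partners of Kv4 channels went opposite ways. Dpp6 lay between 9.28 and 9.43 in the hippocampal formation and between 8.79 and 8.98 in the neocortex (log2 difference 0.48, adjusted p = 0.00202, limma). Dpp10 lay between 6.49 and 7.41 against 8.19 and 8.53 (log2 difference -1.42, adjusted p = 0.000297, limma). The pools of the structures were separate for both genes.

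**Figure D2:**
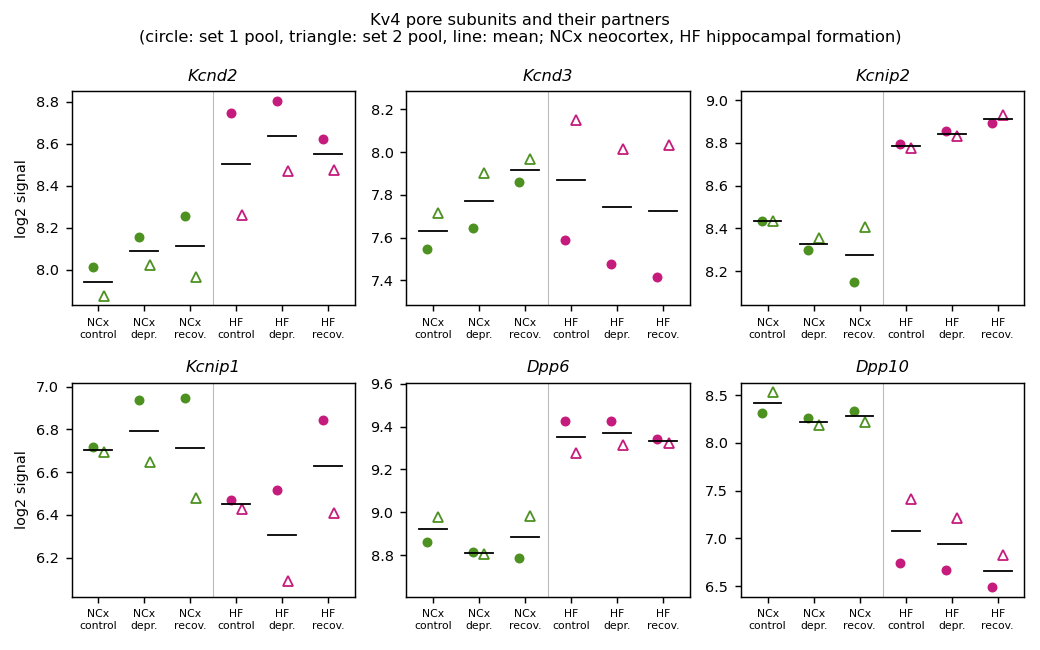
Log2 signal of Kv4 pore and partner genes in each of the 12 pools by structure and state (circles set 1, triangles set 2, bars the mean of 2 pools). The hippocampal pools of Kcnd2, Kcnip2 and Dpp6 lie above all neocortical pools, those of Dpp10 lie below, and those of Kcnd3 overlap.

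The silent Kv subunits gave the largest difference of all channel genes. Kcng2 had hippocampal values of 6.71 to 7.38 (median 7.15) and neocortical values of 4.60 to 5.31 (median 5.17), and was 4.15-fold higher (log2 difference 2.05 ± 0.0726 SE, adjusted p = 3.95e-05, limma). Its difference lay between 1.95 and 2.13 in all 6 animal pools. Its other probe set above the filter was also higher. No fold is settled for that probe set, because its neocortical mean of 3.59 lay under the filter level. The level of Kcng2 in the hippocampal pools of set 2 was lower than in those of set 1 in each state, as was its level in the neocortical pools. Kcns1 had 3.97 to 4.96 (median 4.54) against 5.39 to 5.78 (median 5.53), a 2-fold lower signal (log2 difference -1.0 ± 0.133 SE, adjusted p = 0.00277, limma). Kcnv1 was 1.7-fold lower (log2 difference -0.77 ± 0.0782 SE, adjusted p = 0.000865, limma). Kcng3, Kcns2 and Kcns3 did not pass. Kcng3 was lower in 5 of 6 animal pools (adjusted p = 0.0532), with -0.81 in set 1 and -0.23 in set 2. It passed with the block (adjusted p = 0.00306, limma). Kcns2 differed by 0.74 in set 1 and -0.05 in set 2.

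Of the 3 Kcnh genes above the filter, from the ether-a-go-go family, 2 were lower in the hippocampal formation and Kcnh2 did not pass. Kcnh1 had hippocampal values of 6.69 to 7.12 (median 6.93) and neocortical values of 7.38 to 7.70 (median 7.63), and was 1.57-fold lower (log2 difference -0.65 ± 0.0895 SE, adjusted p = 0.00318, limma). Kcnh3 differed by -0.40 (adjusted p = 0.0064, limma). The pools of both genes were separate. Neither Kcnq3 nor Kcnq5, the M-current subunits that damp repeated firing, passed (differences of 0.12 and -0.02, the latter 0.17 in set 1 and -0.22 in set 2), and neither did the MiRP-type gene Kcne4 (-0.24).

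Of the 8 Kcnj genes above the filter, which encode inward rectifiers, 2 were higher, 3 lower and 3 did not pass. Kcnj6, the GIRK2 subunit opened by G proteins, had hippocampal values of 8.46 to 8.86 (median 8.65) and neocortical values of 7.78 to 8.11 (median 7.96), a 1.61-fold difference (log2 0.69 ± 0.0725 SE, adjusted p = 0.000969, limma). Kcnj16, a glial inward rectifier subunit that pairs with Kcnj10, had 5.78 to 6.05 (median 6.01) against 5.15 to 5.62 (median 5.45), a 1.47-fold difference (log2 0.56 ± 0.0815 SE, adjusted p = 0.00417, limma). Both were separate between the structures. Kcnj9, the GIRK3 subunit, was lower by -0.38 (adjusted p = 0.0269, limma). Kcnj3, the GIRK1 subunit, differed by 0.57 in set 1 and -0.01 in set 2 and did not pass (adjusted p = 0.21, limma). Its mean was higher with the block, which leaves the difference between the sets out of the spread (adjusted p = 0.0173, limma). The constitutive rectifier gene Kcnj4 was lower by -0.51 and Kcnj11, the pore of ATP-sensitive channels, by -0.41. Kcnj10, the main astrocyte potassium channel gene, differed by -0.17 in set 1 and 0.25 in set 2 and did not pass. Of the 11 astrocyte markers 9 lay above 0 and 2 passed, with differences from -0.15 to 0.48.

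Both Kcnk genes that passed encode leak channels opened by stretch and lipids. Kcnk2 had hippocampal values of 6.10 to 6.60 (median 6.41) and neocortical values of 7.62 to 8.03 (median 7.87), and was 2.77-fold lower (log2 difference -1.47 ± 0.085 SE, adjusted p = 0.000109, limma). Kcnk4, which encodes TRAAK, had 4.97 to 5.55 (median 5.24) against 5.79 to 6.43 (median 6.20), and was 1.93-fold lower (log2 difference -0.95 ± 0.114 SE, adjusted p = 0.00179, limma). Their pools did not overlap. Kcnk1 and Kcnk13 did not pass (differences of -0.38 and -0.08, the latter 0.08 in set 1 and -0.24 in set 2), and Kcnk1 was lower with the block (adjusted p = 0.00907, limma).

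Kcnt1, the sodium-activated channel subunit Slack, was 2.07-fold lower on average (log2 difference -1.05 ± 0.215 SE, adjusted p = 0.016, limma). Its hippocampal values of 4.76 to 6.54 (median 5.44) ran up into the neocortical values of 6.35 to 6.78 (median 6.64). It differed by -1.58 in set 1 and by -0.53 in set 2, and its 2 other probe sets differed by -1.41 (adjusted p = 0.00014) and -0.12 (adjusted p = 0.56, limma). Kcnmb4, the neuronal beta subunit of the large-conductance calcium-activated channel, had 7.94 to 8.30 (median 8.01) against 8.08 to 8.40 (median 8.28), with overlap, and was 1.15-fold lower (log2 difference -0.20 ± 0.0565 SE, adjusted p = 0.0488, limma). Its call was lost without the filter (adjusted p = 0.0591, limma). The pore gene Kcnma1 of that channel (0.19) did not pass, but was higher with the block (adjusted p = 0.00614, limma). The small-conductance channel gene Kcnn1 differed by -0.10 in set 1 and 0.13 in set 2 and did not pass.

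**Figure D3:**
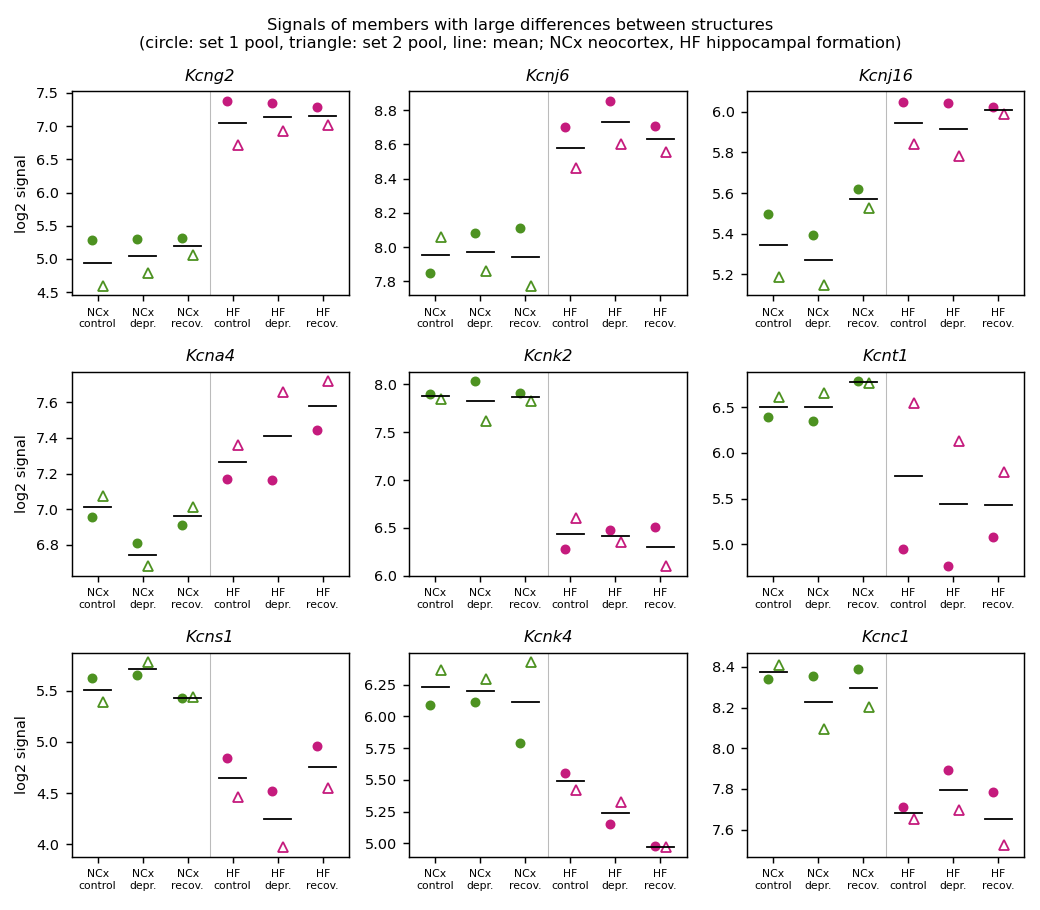
Log2 signal of 9 channel genes with large differences between structures, in each of the 12 pools by structure and state (circles set 1, triangles set 2, bars the mean of 2 pools). All hippocampal pools of Kcng2, Kcnj6, Kcnj16 and Kcna4 lie above all neocortical pools, those of Kcnk2, Kcns1, Kcnk4 and Kcnc1 lie below, and Kcnt1 overlaps through its set 2 control pool.

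Further probe sets above the filter were available for 17 of the 46 genes, and those under it were not compared. Of the 19 further probe sets of genes that passed, 16 had the same sign as the main probe set, 11 passed in the same direction and 0 passed in the opposite direction. That of Kcng2 is among the 11 and passed the filter through its hippocampal pools. Of the 29 genes under the filter, 22 had every pool under a signal of 20. With no filter only Kcnh4, an ether-a-go-go gene, passed among them, lower in all 6 animal pools. The other 28 gave no call, which at these signals does not show that they are absent. They include Kcna3, Kcnb2, Kcnj5, Kcnk3, Kcnk9, Kcnn3 and Kcnq1.

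Genes whose products work with potassium channels or move potassium were counted as a comparison. Of 16 partner genes above the filter (of 17 on the array) 2 were higher, 3 lower and 11 did not pass, with a median difference of -0.09. The share that passed was 31.2%, against 19.9% of all probe sets. Lgi1, a secreted protein that binds Kv1 complexes, was higher by 0.66 and Dlg1, a scaffold, lower by -0.64. Another of the 3 lower genes was Fxyd6 (-0.53, adjusted p = 0.0361, limma), whose family members Fxyd1 and Fxyd7 were counted as pump genes. The share of partner genes that passed thus depends on how Fxyd6 is classed. Of 8 pump and cotransporter genes (of 9) 1 was higher, 2 were lower and 5 did not pass, with a median of -0.03. Here 37.5% passed. The sodium pump subunit gene Atp1b1 was higher by 0.37, and the chloride-extruding potassium chloride cotransporter gene Slc12a5 was lower by -0.19.

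Between the sleep states none of the 46 channel genes passed in any of the 6 comparisons within a structure, nor in any of the 3 tests of whether a state difference depended on the structure (limma, adjusted p under 0.05). Over all 18625 probe sets the share that passed was 0 in each of these. At an unadjusted p under 0.05, 1 channel gene stood out in neocortical recovery against control, 1 in hippocampal recovery against control and 0 in the other 4. The matching shares of all probe sets were 1.11%, 1.12% and 0.907% in the neocortex for deprived against control, recovery against control and recovery against deprived, and 1.1%, 1.51% and 1.62% in the hippocampal formation. The adjusted p of every channel gene was 1 when rounded to 3 digits. Differences of the 46 genes lay between -0.67 and 0.66. The comparisons of a structure share pools, so they are given side by side and not set against one another.

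With the set of rats as a block in the fit, 0 of the 46 genes passed in each of the 6 comparisons, where 0.0107% of all probe sets did for neocortical deprivation against control, 0.00537% for neocortical recovery against deprivation and 0 in the other 4, and the smallest adjusted p of a channel gene was between 0.49 and 0.996 (limma). At an unadjusted p under 0.05 with the block there were 6, 6 and 3 channel genes in the neocortex and 2, 6 and 8 in the hippocampal formation, in the order above. Of all probe sets 5.74%, 5.79% and 4.56% and 5.94%, 7.32% and 7.16% did so.

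**Figure D4:**
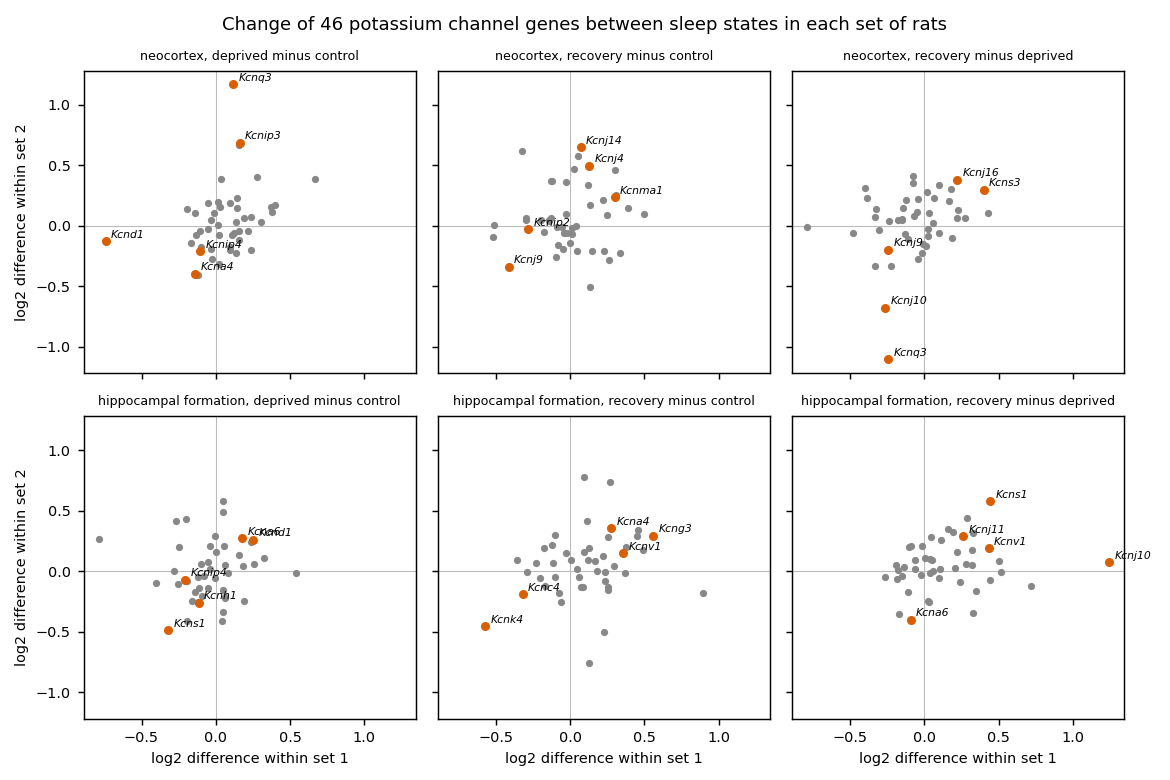
Log2 difference of each of 46 channel genes within set 2 (vertical) against that within set 1 (horizontal) for 6 comparisons of states, with the 5 genes of smallest p named in each. Points in the upper right and lower left of a panel have the same sign in both sets, which held for 24 to 30 of the 46 genes.

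In the neocortex, deprived against control, 28 of 46 genes had a difference above 0 and 18 below, with a median of 0.02 (0.09 in set 1 and 0.02 in set 2) against -0.0071 for all genes. The direction was shared by both sets for 30 genes. The pools of the 2 states did not overlap for 20 genes (43.5%), against 24.5% of all probe sets, a count that carries no test here. Kcnd1, a Kv4 pore gene, had 5.07 and 5.23 in the deprived pools of sets 1 and 2 and 5.81 and 5.36 in the control pools, a difference of -0.43 ± 0.201 (SE, unadjusted p = 0.0569, limma). Kcnip3 had 8.17 and 8.52 against 8.01 and 7.84 (0.42 ± 0.247 SE, unadjusted p = 0.119, limma). Deprived pools lay below control pools for Kcnd1 and above them for Kcnip3.

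Kcnq3 had 6.29 and 6.30 in the deprived and 6.18 and 5.13 in the control pools (0.64 ± 0.386 SE, unadjusted p = 0.129, limma). Nearly all of that difference came from set 2, with 1.17 there and 0.11 in set 1. Kcnip4, with 8.73 and 8.78 against 8.84 and 8.99, and Kcna4, with 6.81 and 6.68 against 6.95 and 7.08, completed the 5 genes with the smallest p. Both lay lower in the deprived pools of each set, by means of -0.16 and -0.27.

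In neocortical recovery against control, 21 genes lay above 0 and 25 below, with a median of -0.02 and of -0.0010 for all genes. Pools did not overlap for 16 genes (34.8%), against 24% of all probe sets. Kcnj9, the GIRK3 subunit, had 5.50 and 5.58 in the recovery pools and 5.92 and 5.92 in the control pools (-0.38 ± 0.148 SE, unadjusted p = 0.0297, limma). Its deprived pools, at 5.75 and 5.78, lay between them. Kcnma1, the large-conductance calcium-activated channel, had 7.92 and 8.12 against 7.62 and 7.88 (0.27 ± 0.134 SE, unadjusted p = 0.0743, limma). However, the mean of its probe sets above the filter differed by -0.04.

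Kcnj4 had 6.92 and 7.18 in neocortical recovery against 6.79 and 6.69, Kcnj14 had 5.21 and 5.79 against 5.14 and 5.15, and Kcnip2 had 8.15 and 8.41 against 8.43 and 8.43. The Kcnip2 recovery pool of set 1 was the one that lay clearly below. Red cell markers had lower summed signals in the neocortical recovery pools, with 817.7 to 1054 against 1678 to 2226 in control, and in the hippocampal recovery pools, with 986.3 to 991.4 against 1510 to 2929. None of the 3 red cell markers passed in either comparison (limma, adjusted p under 0.05). Their part in the recovery values was not tested.

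In neocortical recovery against deprivation, 21 genes lay above 0 and 25 below (median -0.02, with -0.06 in set 1 and 0.06 in set 2, and 0.0069 for all genes). Pools did not overlap for 15 genes (32.6%), against 23.4%. Kcnq3 had 6.05 and 5.20 in recovery and 6.29 and 6.30 after deprivation (-0.67 ± 0.386 SE, unadjusted p = 0.112, limma), again mostly in set 2 (-1.10, and -0.24 in set 1). Kcnj16 had 5.62 and 5.53 against 5.40 and 5.15 (0.30 ± 0.175 SE, unadjusted p = 0.119, limma). Kcns3, a silent subunit gene, had 7.48 and 7.54 against 7.08 and 7.25, and Kcnj10 had 4.57 and 4.21 against 4.83 and 4.89. The Kcnj10 recovery pool of set 2, at 4.21, lay under the filter level. Recovery pools were higher for Kcnj16 and Kcns3 and lower for Kcnj10 in each set. Kcnj9, with -0.22, was the other of the 5.

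In the hippocampal formation, deprived against control, 19 genes lay above 0 and 27 below, with a median of -0.03 and of -0.0033 for all genes. Pools did not overlap for 11 genes (23.9%), against 19.3% of all probe sets. Kcna6, a Kv1 subunit, had 7.22 and 7.28 after deprivation and 7.04 and 7.01 in control (0.22 ± 0.133 SE, unadjusted p = 0.124, limma). Kcns1 had 4.52 and 3.97 against 4.85 and 4.46, so that its pools overlapped across sets although each set differed downward (-0.40 ± 0.243 SE, unadjusted p = 0.127, limma). Kcnip4 had 8.54 and 8.64 against 8.74 and 8.70, lower in each set as in the neocortex. Kcnd1 had 5.47 and 5.39 against 5.22 and 5.13, higher in each set, and Kcnh1 had 7.01 and 6.69 against 7.12 and 6.95, with overlap.

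In hippocampal recovery against control, 31 genes lay above 0 and 15 below, with a median of 0.07 (0.12 in set 1 and 0.07 in set 2) and of -0.0071 for all genes. Pools did not overlap for 15 genes (32.6%), against 19.9%. Kcnk4, the TRAAK leak channel, had 4.98 and 4.97 in the recovery pools and 5.55 and 5.42 in the control pools (-0.51 ± 0.211 SE, unadjusted p = 0.036, limma). Its recovery pools were the lowest of the 6 hippocampal pools. Kcna4 had 7.45 and 7.72 against 7.17 and 7.36 (0.31 ± 0.171 SE, unadjusted p = 0.0966, limma), and Kcng3 had 4.86 and 4.94 against 4.29 and 4.64 (0.43 ± 0.235 SE, unadjusted p = 0.101, limma). Kcnv1 had 8.04 and 7.85 against 7.68 and 7.71, and Kcnc4 had 6.71 and 6.68 against 7.03 and 6.87. All but Kcnc4 and Kcnk4 of these 5 lay higher in recovery.

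In hippocampal recovery against deprivation, 32 genes lay above 0 and 14 below, with a median of 0.07 (0.08 in set 1 and 0.04 in set 2) and of -0.0065 for all genes. Pools did not overlap for 15 genes (32.6%), against 23.2%. Kcnj11, the ATP-sensitive pore, had 6.35 and 6.46 in recovery and 6.09 and 6.17 after deprivation (0.27 ± 0.13 SE, unadjusted p = 0.0618, limma), but the mean of its probe sets differed by -0.02. Kcns1 had 4.96 and 4.55 against 4.52 and 3.97 (0.51 ± 0.243 SE, unadjusted p = 0.0633, limma). Kcnv1, also a silent subunit gene, had 8.04 and 7.85 against 7.61 and 7.67 (0.31 ± 0.149 SE, unadjusted p = 0.0641, limma). Recovery pools of Kcnv1 and Kcns1 lay above the deprived pools of their set. Kcna6 had 7.12 and 6.88 against 7.22 and 7.28. Kcnj10 had 5.01 and 5.0 against 3.77 and 4.92, where 1 deprived pool made the difference (1.25 in set 1 and 0.07 in set 2). That pool, at 3.77, lay under the filter level, so the size of the Kcnj10 difference is not settled.

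Several marker lists lay mostly to 1 side in the same hippocampal recovery pools, with 0 calls. All 5 choroid plexus markers above the filter lay below 0 against control (median -0.67) and against deprivation (median -1.19). The summed signals of all 8 on the array were 777.2 to 1746 in recovery, 1881 to 3667 in control and 926.4 to 6226 after deprivation. All 10 oligodendrocyte markers lay above 0 against deprivation (median 0.15) and 9 of 10 against control (median 0.05). Of the meningeal and fibroblast markers 7 of 8 lay below 0 against control (median -0.34), and of the microglial markers 7 of 8 (median -0.09). Of the hippocampal neuron markers 8 of 9 lay above 0 against control (median 0.07) and 7 of 9 against deprivation (median 0.03). Of the neocortical neuron markers 6 of 9 lay below 0 against control (median -0.26) and 5 of 9 against deprivation (median -0.07). Interneuron markers lay on both sides against control, 6 above and 4 below 0 (median 0.01). The part of all these markers in the direction of the channel genes was not tested.

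**Figure D5:**
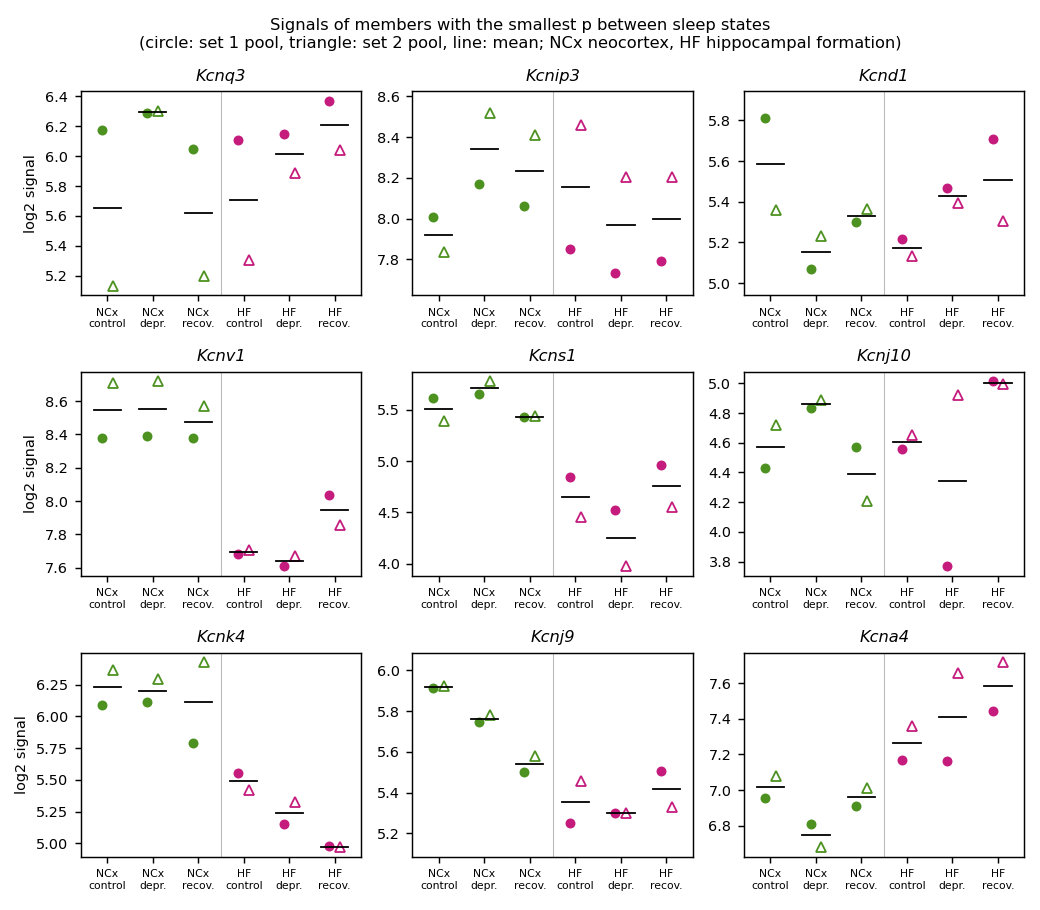
Log2 signal of 9 channel genes with small unadjusted p between sleep states, in each of the 12 pools by structure and state (circles set 1, triangles set 2, bars the mean of 2 pools). Kcnj9 in the neocortex and Kcnk4 in the hippocampal formation show separate recovery and control pools, and Kcnq3 shows low set 2 pools in neocortical control and recovery.

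A dependence of the state difference on the structure was tested on the difference between the structures within each animal pool, and 0 of 46 genes passed for each of the 3 pairs of states, with or without the block (with it, 0.0107% of all probe sets passed for recovery against deprivation and 0 for the other pairs). At an unadjusted p under 0.05 there were 2 genes for deprived against control, 0 for recovery against control and 4 for recovery against deprived, where 1.14%, 1.3% and 1.6% of all probe sets did so. For deprived against control the difference of Kcnd1 was 0.69 higher in the hippocampal formation (SE 0.276, unadjusted p = 0.0406, limma) and that of Kcnip3 was -0.61 (SE 0.245, unadjusted p = 0.041, limma). For recovery against control the smallest p belonged to Kcnq3 (0.53, SE 0.249, unadjusted p = 0.0683) and Kcnd1 (0.59, SE 0.276, unadjusted p = 0.0696, limma). For recovery against deprivation they belonged to Kcnq3 (0.86, SE 0.249, unadjusted p = 0.0102) and Kcnj10 (1.13, SE 0.42, unadjusted p = 0.0304, limma). In this last pair the sets gave 0.47 and 1.26 for Kcnq3 and 1.51 and 0.75 for Kcnj10. For Kcnj10 the set 1 deprived hippocampal pool (3.77) and the set 2 neocortical recovery pool (4.21) lay under the filter level. The size of its difference is therefore not settled.

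The partner genes and the pump and cotransporter genes gave 0 calls between states as well. Their median differences in hippocampal recovery against control were -0.04 and -0.05, and in neocortical deprivation against control -0.04 and -0.06.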

How the data were processed

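Biotin-labelled cRNA from pooled RNA was hybridised to Affymetrix rat arrays, per the labels' protocols. The deposited values are linear intensity values of 31099 probe sets for 18 arrays, made with MAS5 per the submitters' processing notes. Its version, background settings, scaling target and detection calls are not given in the sources used here. With 2% trimmed from both ends, every array had a mean of 100.03, so the arrays had been scaled alike.

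Signals were raised to a floor of 1 and log2-transformed with no further normalization, the arrays of a pool were averaged, and 57 control probe sets and the dimmest 40% of the rest (mean log2 under 4.30, a signal of 19.7) were removed, leaving 18625. Folds refer to these log2 values. Symbols came from the platform annotation, and all 75 were unchanged in RefSeq.

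Structures were tested on the difference within each of 6 animal pools, hippocampal formation minus neocortex, since a pool's rats gave both tissues, and states on group means of all 12 pools with 1 shared estimate of the spread (limma 3.58.1, R 4.3.3, lmFit and eBayes with an intensity trend, Benjamini-Hochberg over all kept probe sets). Scripts were tested on simulated data. The p-values measure the spread between pools of 6 rats. With the set as a block, the mean difference between the sets is taken out of that spread. The fit of states takes the 12 pools as independent although pools of both tissues came from the same rats. Same-numbered pools deviated together from their group means (correlations of 0.539 to 0.682 within a structure and 0.182 to 0.387 between), but the labels do not say that a number marks a shared day or litter, so the set is no term of the main model.

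The named genes are the calls between structures (pool values for the 5 largest each way and the largest of each subfamily), the 5 smallest p of each comparison of states and the 2 smallest of each interaction. A fit without set 2 of the hippocampal formation was added after seeing the data. Genes listed as under the filter are examples chosen after their values were seen. The channel genes and the gene lists were chosen with earlier results of these data known. For recovery the sample labels (72 h, then 6 h) were used, although the treatment protocol could mean 78 h before the 6 h. Figures were drawn with matplotlib 3.10.9.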

Additional observations from a re-analysis of the deposited data

How the results depend on the processing

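The count of channel genes that differed between the structures was 26 of the 46 above the filter, with 8 higher and 18 lower. It was 27 with a floor of 16, 26 after quantile normalization and 25 with the mean of a gene's probe sets above the filter. With no filter it was 24 of all 75 genes, among them Kcnh4. The share of all probe sets was not counted for these settings or for the single pools left out. Leaving out 1 animal pool at a time gave 17 to 27 genes, 6 to 8 higher and 10 to 20 lower. The lowest count, 17 with 10 lower, was without deprived replicate 1, where Kcna5, Kcna6, Kcnab2, Kcnab3, Kcnip1, Kcnj11, Kcnj9, Kcnmb4 and Kcnt1 lost their calls; the cause was not tested. Of the 26 genes, 15 passed under all 12 alternatives with a test and 0 changed sign. Kcnmb4 lost its call in 8 of these alternatives, and Kcnip1, Kcnj9 and Kcnab1 in 7 each. Without set 2 of the hippocampal formation 31 genes passed, in a fit of 1 mean to the 3 set 1 differences that was chosen after seeing the data.

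With the replicate block (the set of rats as a paired term) 32 channel genes differed between the structures, 10 higher and 22 lower, among them all 26, and 43% of all probe sets passed. The block changed no call of a channel gene between states, where 0 passed under every alternative run. Under the mean of a gene's probe sets the difference of Kcnma1 in neocortical recovery against control was -0.0369 and that of Kcnj11 in hippocampal recovery against deprivation was -0.0225, both of the opposite sign; the cause was not tested.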
